A study of Mus musculus with 64 samples.

Results

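The 8 genes described here carry the fast electrical signals of the heart: Scn4b, Gja1, Gja5, Cacna1c, Cacnb2, Cacna2d1, Cacna1g and Cacna1h. They were taken by name, for their roles in excitation and conduction, from the 16913 genes counted by bulk RNA sequencing in 64 mouse hearts, and all 8 passed the filter on low counts. The hearts came from C57BL/6J mice that carried the cardiac troponin T deletion cTnT-delta160E (TG) or did not (nTG), a mouse model of hypertrophic cardiomyopathy. Trained mice completed 6 weeks of high intensity interval training (HIIT) on a treadmill, 3 sessions of 31 minutes a week, each with 4 intervals at 85% and 4 at 50% of the mean speed their group reached in an exercise test; sedentary mice did not run. The 8 groups held 7 sedentary and 8 trained nTG males, 9 sedentary and 8 trained TG males, 8 sedentary and 10 trained nTG females, and 8 sedentary and 6 trained TG females. The labels number the mice of a group as biological replicates, and they give neither age nor the promoter that drives the transgene.

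In a working myocyte each action potential begins with sodium entering through a voltage-gated channel, and Scn4b encodes one of its beta subunits. The depolarisation then opens the L-type calcium channel, made of the pore encoded by Cacna1c, the intracellular beta subunit encoded by Cacnb2 and the extracellular alpha-2-delta subunit encoded by Cacna2d1, and the calcium that enters triggers contraction. T-type calcium channels, with pores encoded by Cacna1g and Cacna1h, open at more negative voltages and are best known from pacemaker and conduction cells of the adult heart. The impulse passes between cells through gap junctions: the connexin of Gja1 is the main one of working ventricular myocytes, and that of Gja5 is found in atrial myocytes, the ventricular conduction system and arterial endothelium.

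The columns of the deposited gene table carried library names that disagreed with the labels. By name, 45 of 64 libraries contradicted the labelled sex through Xist or the labelled genotype through Tnnt2, the gene of cardiac troponin T. Each library was therefore given the gene column most correlated with its column in the deposited lncRNA table. This gave 64 distinct and mutual pairs with r of 0.599 to 0.863, against at most 0.404 for the next best column, and no library then contradicted its labels. In CPM, counts scaled to a fixed library total, Tnnt2 was at 6903 to 12001 in TG and 2665 to 3428 CPM in nTG hearts; no gene checks the training label. Libraries held 34574813 to 67068562 counts, and the lowest count of any of the 8 genes in any library was 159, for Cacna1h. Markers of 6 genes summed to 42219 to 63238 CPM for cardiomyocytes, so the libraries carry the labelled heart's own markers. In 16 libraries Rps18 was below 30 CPM, and it was below 10 CPM in 2 of these, a trained TG male and a trained TG female; results that rest on them are given with and without them.

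The promoters are shown for Scn4b, which had the most significant genotype difference of the 8, for Cacna2d1, the gene that differed with training, and for the second start of Cacnb2, the one window with matches to a cardiac factor's motif upstream of the start. Each is the 250 bases before a RefSeq start on GRCm38, 5′ to 3′ on the gene's strand, with motif matches in capitals.

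Scn4b, chr9:45138374-45138623, plus strand: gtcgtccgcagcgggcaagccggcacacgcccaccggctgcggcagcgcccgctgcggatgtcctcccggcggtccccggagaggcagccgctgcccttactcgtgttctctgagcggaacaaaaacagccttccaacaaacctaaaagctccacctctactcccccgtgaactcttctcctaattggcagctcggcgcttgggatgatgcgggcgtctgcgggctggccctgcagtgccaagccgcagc

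Cacna2d1, chr5:15934441-15934690, plus strand: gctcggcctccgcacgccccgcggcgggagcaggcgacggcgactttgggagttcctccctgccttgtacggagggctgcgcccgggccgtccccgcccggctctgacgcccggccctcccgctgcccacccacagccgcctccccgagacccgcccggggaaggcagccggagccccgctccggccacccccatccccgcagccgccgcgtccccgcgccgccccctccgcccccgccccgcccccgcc

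Cacnb2, chr2:14823842-14824091, plus strand: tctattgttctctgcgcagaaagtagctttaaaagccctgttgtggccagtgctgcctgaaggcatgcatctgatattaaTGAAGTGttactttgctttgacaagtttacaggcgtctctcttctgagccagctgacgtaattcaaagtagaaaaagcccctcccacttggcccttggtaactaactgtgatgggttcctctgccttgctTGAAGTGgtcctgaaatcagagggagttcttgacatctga

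The Scn4b and Cacna2d1 windows held 66% and 82.4% G or C, and the Cacnb2 window 46%; the median over all 32851 windows, taken with the 50 bases after the start, was 52.4%. The capitals in Cacnb2 are 2 copies of TGAAGTG, which fit TNAAGTG, the NKX2-5 motif, and lie 170 and 40 bases before the start. That motif was in 11.5% of all windows, and in 10.1% by the 250 bases alone. Shares of all windows given here include the 50 bases after the start unless stated. Of 5 motifs searched on both strands in the 9 windows of 6 members, only one other matched, the T-box motif AGGTGT, 23 bases after the second Cacna1c start, and 13.7% of all windows held it. The MEF2 motif, the GATA motif AGATAAG and the E-box CACGTG were in 3.69%, 3.04% and 7.15% of all windows and in none of these 9.

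Divided by the length of each gene's merged exons, levels over the 64 libraries ran from Gja1 at 47.3 ± 4.31 CPM per kb (SD, n = 64) through Cacna1c at 29 ± 2.15, Scn4b at 18.8 ± 4.04, Cacna2d1 at 11.5 ± 1.41 and Cacnb2 at 5.63 ± 0.697 to Cacna1g at 2.86 ± 0.833, Cacna1h at 2.57 ± 1.11 and Gja5 at 1.31 ± 0.295. Cacna1c had the narrowest range, with its highest library 1.38 times its lowest. The same ratio was 1.43 for Gja1, 2.66 for Scn4b, 3.04 for Gja5, 3.75 for Cacna1g and 16.2 for Cacna1h. In GRCm38 coordinates Scn4b (ENSMUSG00000046480) lies on chromosome 9 from 45138395 to 45154152, Gja1 (ENSMUSG00000050953) on chromosome 10 from 56377330 to 56402513 and Gja5 (ENSMUSG00000057123) on chromosome 3 from 96904693 to 97077416. Of the L-type genes, Cacna1c (ENSMUSG00000051331) lies on chromosome 6 from 118587240 to 119196418, Cacnb2 (ENSMUSG00000057914) on chromosome 2 from 14603088 to 14987908 and Cacna2d1 (ENSMUSG00000040118) on chromosome 5 from 15934691 to 16374511. Cacna1g (ENSMUSG00000020866) lies on chromosome 11 from 94408391 to 94474198 and Cacna1h (ENSMUSG00000024112) on chromosome 17 from 25374285 to 25433783.

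**Figure D1:**
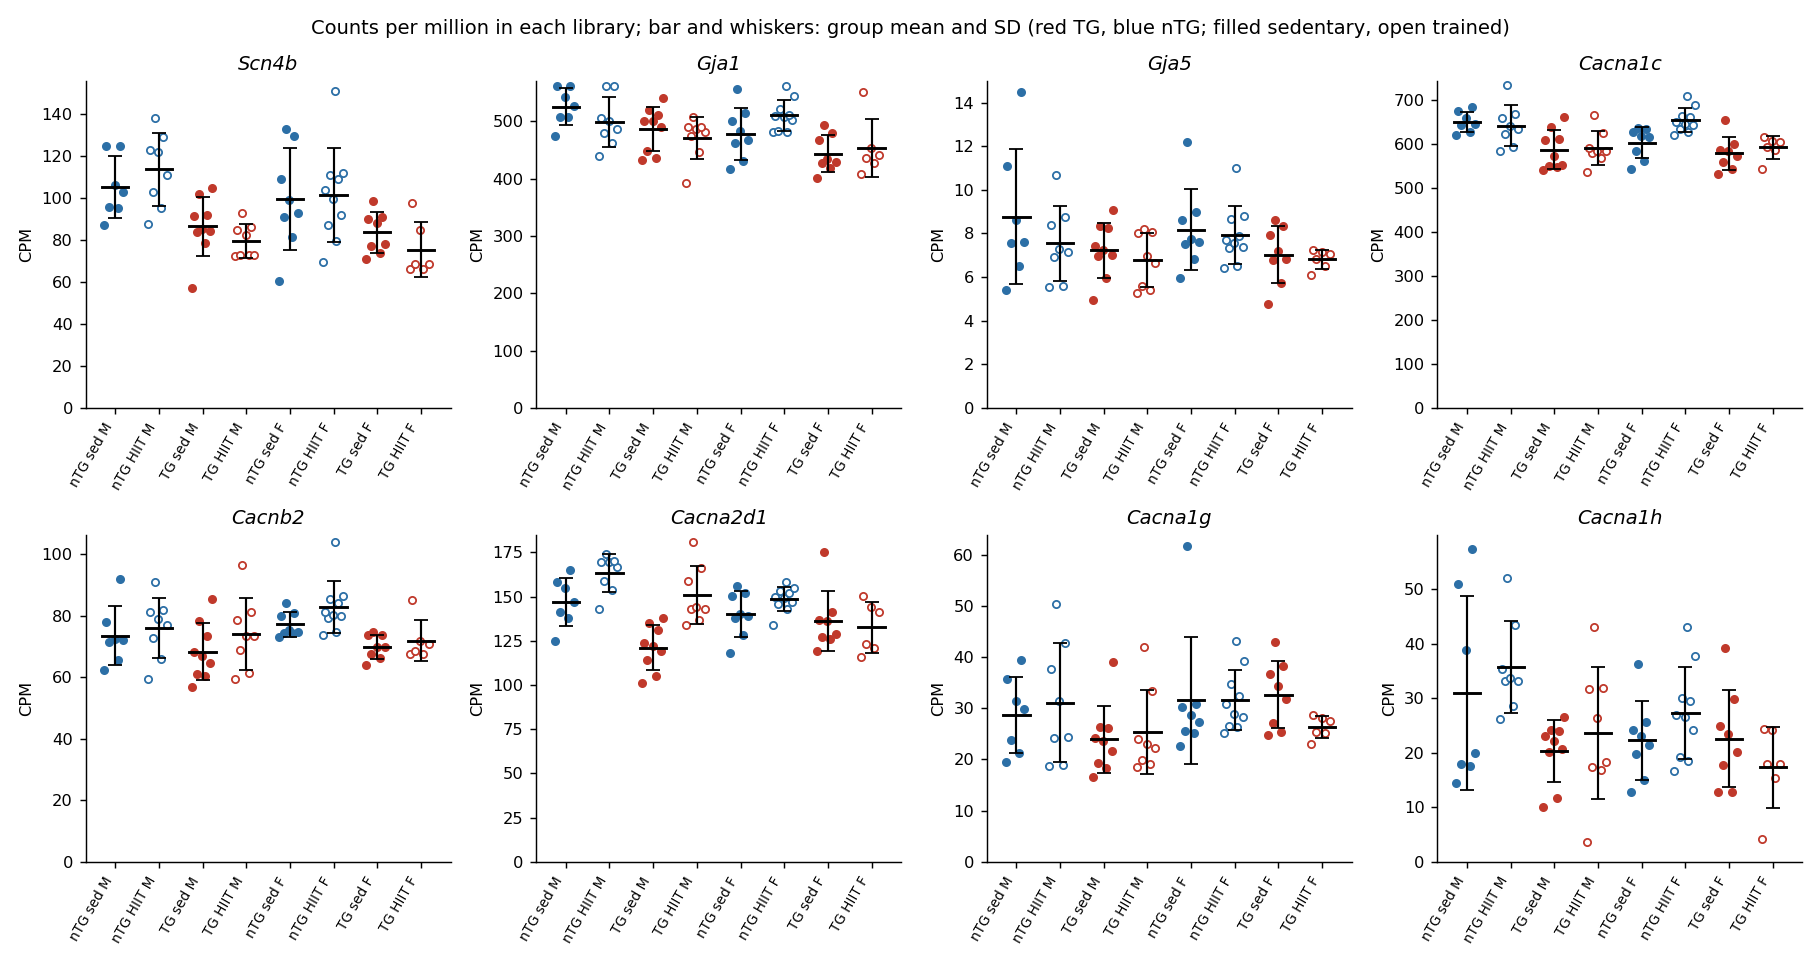
CPM (y axis, from 0) of the 8 genes in each of the 64 libraries by group (x axis); red points are TG and blue nTG, filled points sedentary and open points trained, and bars with whiskers are the group mean and SD. For Scn4b the 4 TG groups have the 4 lowest means, and for Cacna1h 2 trained TG hearts lie at 3.54 and 4.2 CPM.

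TG hearts had less mRNA of nearly the whole set. Averaged over sex and training, 7 of the 8 genes fell, by 7.79% for Cacna1c to 27.4% for Cacna1h, and none rose. Over all genes 39% were called in this comparison and 20.5% were called lower (edgeR quasi-likelihood test, Benjamini-Hochberg adjusted p under 0.05 over 16913 genes). The median log2 fold change was -0.172 over the 8 genes and 0.007 over all genes. Within the 4 strata, the TG and nTG ranges overlapped for every gene except Cacna1c in trained females. The share of all genes without overlap was not counted, so that case is not set against a background. In whole hearts, fewer cells of a type and less RNA per cell cannot be told apart. The p-values measure the spread between these mice.

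Markers of other cells moved with genotype too. All 6 fibroblast markers rose in TG hearts, by 0.22 to 0.61 on the log2 scale, and their sum was 507 to 1034 CPM in nTG and 641 to 1312 CPM in TG hearts. All 6 macrophage markers rose, by 0.38 to 0.49, with sums of 128 to 255 and 173 to 314 CPM. Of 6 cardiomyocyte markers 5 fell, with the 6 between -0.20 and -0.04 and a median of -0.12, and their sum was 51621 to 63238 CPM in nTG and 42219 to 58848 CPM in TG hearts. The falls of Gja1 (-0.12 ± 0.03, SE), Cacna1c (-0.12 ± 0.02) and Cacnb2 (-0.12 ± 0.04) were as large as that median; the part of cell makeup in them was not tested. Both skeletal muscle markers measured rose, Myl1 by 1.82 ± 0.10 and Mybpc2 by 0.99 ± 0.08, and passed in all 4 strata; their sum was 25.3 to 53.8 CPM in nTG and 68.8 to 165 CPM in TG hearts, with no overlap. Of 6 blood markers 3 fell as a mean of the strata.

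**Figure D2:**
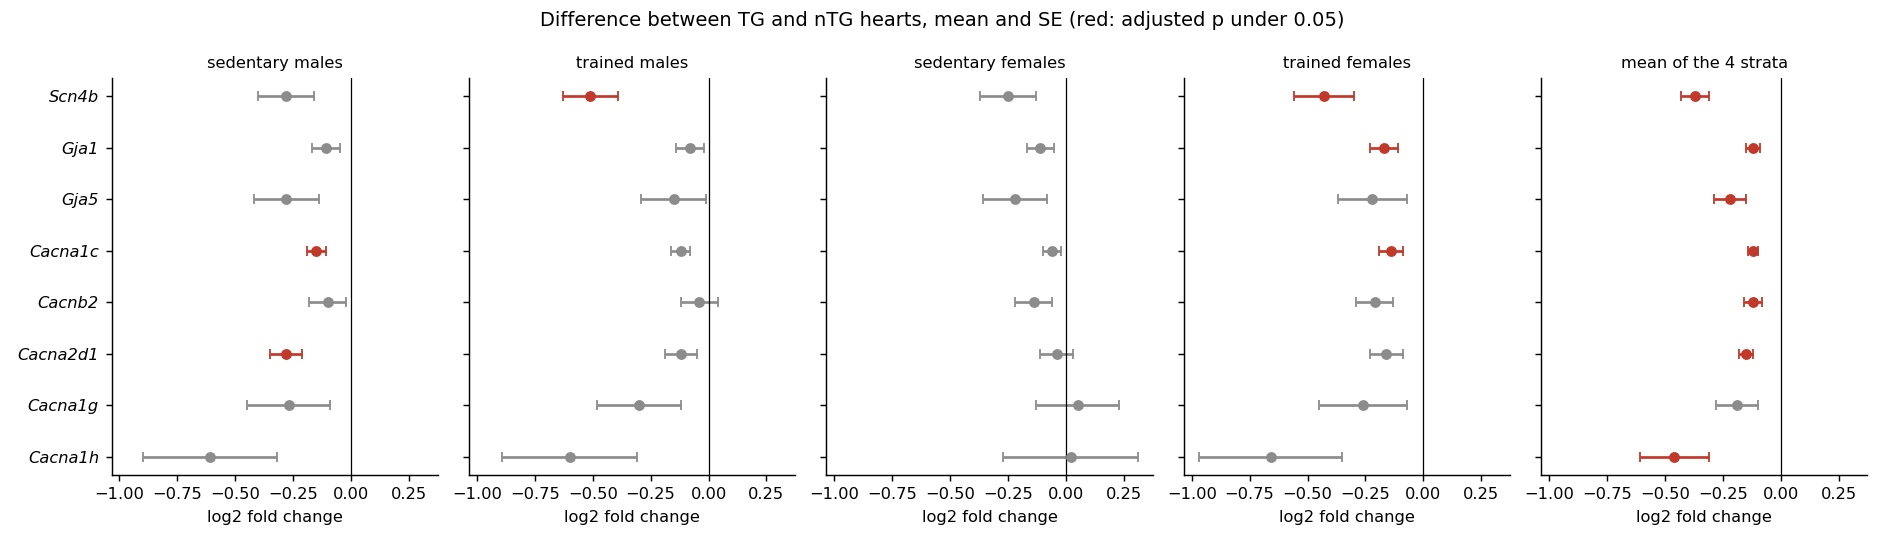
Log2 fold change of TG over nTG (x axis) for each gene (rows), in the 4 combinations of sex and training and as their mean; points are edgeR estimates, whiskers the SE, and red marks an adjusted p under 0.05. In the right panel 7 of 8 genes are red and left of 0, and Cacna1g is grey at -0.19.

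Scn4b, the sodium channel beta subunit gene, had the smallest p of the set. Its lowest, median and highest values were 87.1, 103 and 125 CPM in sedentary and 87.7, 116 and 138 CPM in trained nTG males. In TG males they were 57, 85.3 and 105 CPM when sedentary and 72.4, 77.8 and 93 CPM when trained. All 8 trained TG males lay below the median of trained nTG males, though the ranges met between 87.7 and 93 CPM. In females the values were 60.4, 96.1 and 133 CPM (sedentary nTG), 69.4, 102 and 151 CPM (trained nTG), 71.1, 83.3 and 98.4 CPM (sedentary TG) and 66.1, 68.4 and 97.6 CPM (trained TG). All 6 trained TG females lay below the trained nTG median, while the sedentary TG females sat inside the wide sedentary nTG range.

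By edgeR, Scn4b fell in trained males by 0.51 ± 0.12 on the log2 scale, or 29.8% (adjusted p = 0.00215), and it alone of the 8 genes was called there, where 14% of all genes were. In trained females it fell by 0.43 ± 0.13, or 25.7% (adjusted p = 0.0146). The differences in sedentary males (-0.28 ± 0.12, adjusted p = 0.0881) and sedentary females (-0.25 ± 0.12, adjusted p = 0.269) missed the threshold. The genotype difference was not shown to change with training: the interaction was -0.23 (95% interval -0.56 to 0.11) in males and -0.18 (-0.52 to 0.16) in females. As a mean of the 4 strata Scn4b fell by 0.37 ± 0.06 (adjusted p = 1.25e-06). The call in trained females was lost without replicate 4 of the trained TG females (-0.38, adjusted p = 0.0501) and without the 16 libraries low in Rps18 (-0.28, adjusted p = 0.391). The call in trained males was kept without those 16 (-0.49, adjusted p = 0.0152). Those 16 include replicates 3, 4 and 5 of the 6 trained TG females, but in trained males only TG replicate 7. Without them the genes called by edgeR went from 2503 to 783 in trained females and from 2361 to 1774 in trained males. The part of having fewer hearts in the lost call was not tested. In trained males 5 of 6 blood markers fell too, with a median of -1.22 and sums of 573 to 1114 CPM in nTG and 259.7 to 555 CPM in TG hearts. In that stratum 4 of 6 fibroblast and 4 of 6 macrophage markers rose, with medians of 0.42 and 0.39, the endothelial marker Cdh5 fell by 0.16 ± 0.05, and the median of the 6 cardiomyocyte markers was -0.04. The part of these cells in the Scn4b result was not tested.

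Among the other genes of the sodium channel complex, 11 of the 14 listed were measured, and 2 rose and 5 fell in TG hearts as a mean of the strata, with a list median of -0.14. Gpd1l, whose product acts on the trafficking of the cardiac sodium channel, fell by 0.25 ± 0.02 (edgeR adjusted p = 8.26e-16), and Fgf13, encoding an intracellular partner of sodium channels, fell by 0.22 ± 0.04 (adjusted p = 1.44e-06). Another beta subunit gene, Scn3b, rose by 0.46 ± 0.08, or 37.4% (adjusted p = 2.42e-06), from a low level. In sedentary males Scn3b had a lowest, median and highest value of 0.644, 0.859 and 1.11 CPM in nTG and 1.12, 1.63 and 2.12 CPM in TG, so there the groups did not overlap. It was called in that stratum alone, and the ranges overlapped in the others, where the differences were 0.28 to 0.36 (adjusted p from 0.123 to 0.225). The beta subunit genes Scn4b and Scn3b therefore moved in opposite directions as a mean of the strata. Between hearts within groups, the genes most like Scn4b over the 64 libraries were Stom, encoding the membrane protein stomatin (Pearson r 0.75, Spearman rho 0.73), Ano5 (0.65 and 0.51) and Ifngr2 (0.64 and 0.64).

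Cacna1c, the L-type pore gene, was lower in TG hearts in all 4 strata and called in 2. Its lowest, median and highest values were 621, 646 and 685 CPM in sedentary nTG males and 541, 574 and 663 CPM in sedentary TG males. In trained females they were 622, 649 and 711 CPM in nTG and 544, 600.4 and 617 CPM in TG. The female groups did not overlap, while in sedentary males 8 of 9 TG hearts lay below the nTG median. The fall was 0.15 ± 0.04 (9.77%, edgeR adjusted p = 0.0107) in sedentary males and 0.14 ± 0.05 (9.49%, adjusted p = 0.0237) in trained females. In trained males the difference was -0.12 ± 0.04 (adjusted p = 0.0605) and in sedentary females -0.06 ± 0.04 (adjusted p = 0.57). Both calls were lost without the 16 libraries low in Rps18 (-0.10 and -0.15, adjusted p = 0.212 and 0.186). The genes called in these comparisons then went from 3488 to 2135 and from 2503 to 783. The call in trained females was also lost without replicate 1 or 3 of the trained TG females (adjusted p = 0.081 and 0.0626). It was lost too with the replicate number as a block. The mean of the strata fell by 0.12 ± 0.02 (adjusted p = 1.65e-05). Most like Cacna1c within groups were Ttll1 (r 0.72, rho 0.73), the cAMP phosphodiesterase gene Pde3a (0.69 and 0.69) and Dhdh (0.67 and 0.55).

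Cacna2d1, the alpha-2-delta subunit gene, fell most in sedentary males. It had a lowest, median and highest value of 125, 147 and 165 CPM in nTG and 101, 122 and 138 CPM in TG sedentary males. All 9 TG hearts lay below the nTG median. The fall was 0.28 ± 0.07, or 17.6% (edgeR adjusted p = 0.00131). With Cacna1c it made 2 of 8 genes called in sedentary males, where 20.6% of all genes were. In the same sedentary males 4 of 6 cardiomyocyte markers fell, with the 6 between -0.31 and -0.04 and a median of -0.22, and all 6 macrophage and all 6 fibroblast markers rose, with medians of 0.70 and 0.50. Their part in the falls of Cacna2d1 and Cacna1c there was not tested. In the other strata the difference was -0.12 ± 0.07 (trained males), -0.04 ± 0.07 (sedentary females) and -0.16 ± 0.07 (trained females), with adjusted p from 0.0906 to 0.833. The value in sedentary females was -0.10 without TG replicate 7, which had 175 CPM, and -0.01 without TG replicate 3. In trained females limma voom called it (-0.18, adjusted p = 0.0276), as did edgeR without replicate 6 of the TG group (-0.20, adjusted p = 0.0492), while without the 16 libraries low in Rps18 it was -0.04 (adjusted p = 0.811). As a mean of the strata it fell by 0.15 ± 0.03 (adjusted p = 1.81e-04).

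Cacnb2, the beta subunit gene, passed in no single stratum by the edgeR fit of all groups and fell by 0.12 ± 0.04 as their mean (edgeR adjusted p = 0.0103). Its group medians ran from 66.8 CPM in sedentary TG males to 80.7 CPM in trained nTG females. In trained females its difference was -0.21 ± 0.08 (adjusted p = 0.0746), and it was called without the 2 libraries lowest in Rps18 (-0.26, adjusted p = 0.023), without replicate 3 of the TG group (-0.25, adjusted p = 0.0422), in a fit of these groups alone (-0.19, adjusted p = 0.0487) and by limma voom (-0.23, adjusted p = 0.0205). Cacnb2 overlaps 3 annotated genes on the opposite strand that are not analysed here, and the strand used in counting is not given in the sources used here. Its most alike genes were Rapgef2 (r 0.62, rho 0.50), Rpl3l, a ribosomal protein gene of striated muscle (0.59 and 0.46), and the muscle gene Smyd1 (0.59 and 0.51).

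Of 16 other calcium channel genes and inhibitors listed, 13 were measured, and 4 rose and 4 fell as a mean of the strata, with a list median of 0.06. Cacng6, an auxiliary gamma subunit gene, fell by 1.54 ± 0.14, or 65.6% (edgeR adjusted p = 7.34e-14); in sedentary males it was 2.45 to 3.38 CPM in nTG and 0.309 to 1.88 CPM in TG, with no overlap. Cacna1s, the L-type pore gene known from skeletal muscle, fell by 0.53 ± 0.07 (adjusted p = 3.23e-09). Cacna2d3, an alpha-2-delta gene of the same family as Cacna2d1, rose by 1.04 ± 0.14 (adjusted p = 1.17e-08) from a low level: its means were 0.502 CPM in sedentary nTG and 1.05 CPM in sedentary TG males. Cacna2d2, another alpha-2-delta gene, fell by 0.46 ± 0.15 (adjusted p = 0.0119), as Cacna2d1 did; it was named after its values were seen.

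Gja1, the ventricular connexin gene, was called in trained females. There its lowest, median and highest values were 481, 509 and 561 CPM in nTG and 409, 439.5 and 552 CPM in TG. In TG hearts 5 of 6 lay below the nTG median, and the sixth, replicate 3, stood at 552 CPM near the top of the nTG range. The fall was 0.17 ± 0.06, or 11.2% (edgeR adjusted p = 0.0376). With Scn4b and Cacna1c it made 3 of 8 genes called in trained females, where 14.8% of all genes were. In the same hearts 3 of 6 cardiomyocyte markers fell (median of the 6, -0.15), and 4 of 6 fibroblast and 5 of 6 macrophage markers rose (medians of 0.38 each). Their part in these 3 calls was not tested. The call was near the threshold: leaving out 1 of the 16 hearts lost it in 8 cases, with adjusted p of 0.0504 to 0.109 in those, while leaving out the 2 libraries lowest in Rps18 gave -0.24 (adjusted p = 0.00412). Other size factors, a stricter filter on counts and a fit of these groups alone also lost it (adjusted p = 0.0515, 0.0653 and 0.0561). In the other strata Gja1 was lower by estimate, between -0.11 and -0.08, and not called. As a mean of the strata it fell by 0.12 ± 0.03 (adjusted p = 5.44e-04). The genes most like Gja1 were Gapdh (r 0.58, rho 0.59), Lrrc4b (0.56 and 0.56) and Sipa1l2 (0.54 and 0.55).

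Gja5, the conduction system, atrial and arterial connexin gene, was the least abundant of the 8. Its group medians were 7.21 to 7.67 CPM in the 4 nTG groups and 6.79 to 7.26 CPM in the 4 TG groups, and single hearts ran from 4.78 to 14.5 CPM. It passed in no stratum and fell by 0.22 ± 0.07 as their mean (edgeR adjusted p = 0.0134), a call lost without the 16 libraries low in Rps18 (-0.20, adjusted p = 0.0672). Of 6 arterial endothelial markers none was called as a mean of the strata, and their sum was 129 to 164 CPM in nTG and 121 to 164 CPM in TG hearts. In sedentary males 1 of the 6, Dll4, was called lower. Of 5 atrial markers measured, Stard10 fell by 0.16 ± 0.05 (adjusted p = 0.0172) and 4 were not called; their sum varied widely between hearts, from 22.7 to 347 CPM in nTG and 23.1 to 303 CPM in TG. In sedentary males their median difference was -1.15, with 1 of 5 called. The part of atrial tissue in the Gja5 result was not tested. Gja5 overlaps Gpr89 on the opposite strand, which fell by 0.13 ± 0.02 (adjusted p = 9.88e-07), and how far reads of one were counted for the other was not tested.

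Of the other connexins, the pannexin and partners at the intercalated disc, 12 of 14 were measured, and 1 rose and 8 fell, with a list median of -0.07. Dsp, encoding the desmosomal protein desmoplakin, fell by 0.11 ± 0.02 (edgeR adjusted p = 2.13e-07). Tjp1, encoding the scaffold ZO-1 that binds the Gja1 connexin, fell by 0.06 ± 0.02 (adjusted p = 4.17e-04). Panx1, encoding a channel related in fold to the connexins, rose by 0.60 ± 0.09 (adjusted p = 3.22e-07); its means were 2.43 CPM in sedentary nTG and 4.75 CPM in sedentary TG males. The connexin genes Gja3, Gja4 and Gjc1 were not called.

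**Figure D3:**
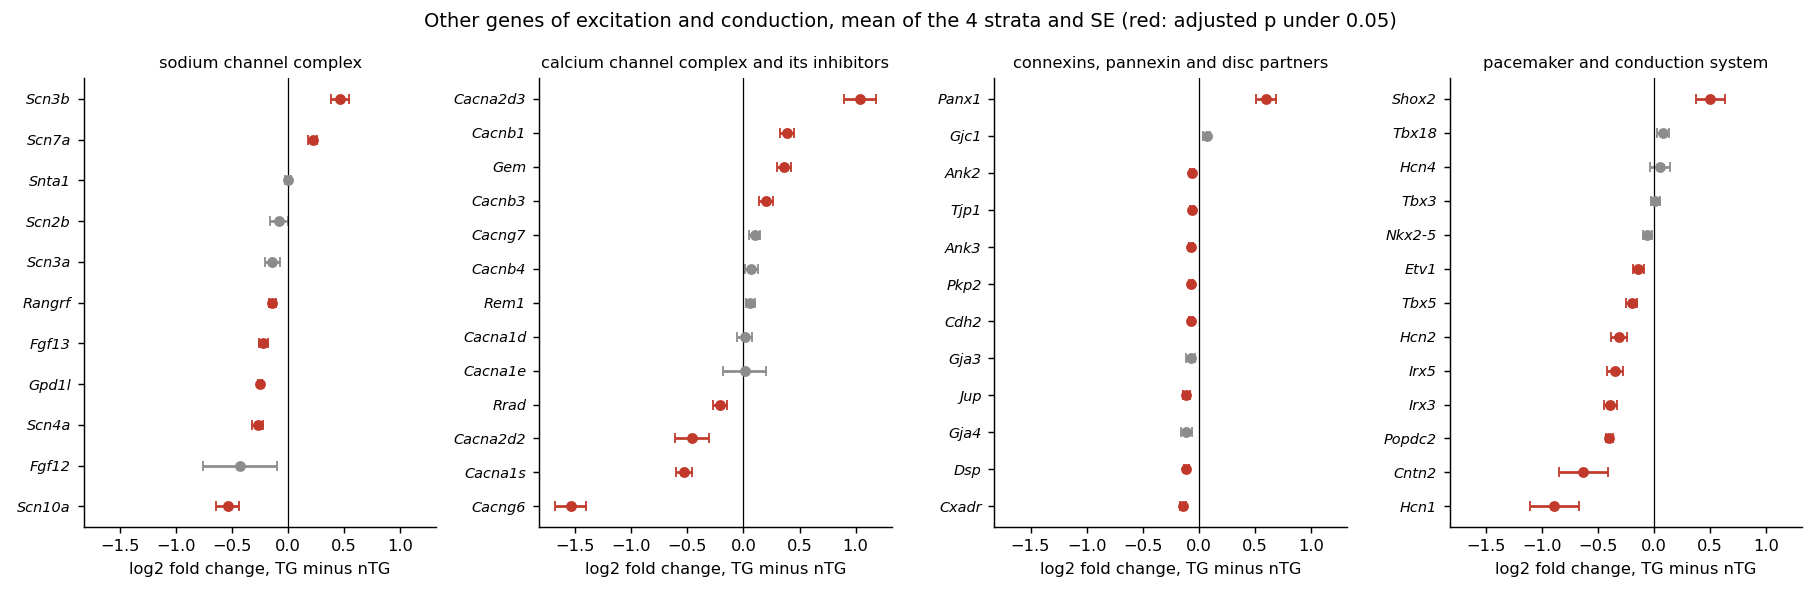
Log2 fold change of TG over nTG (x axis), mean of the 4 strata, for the 49 measured genes of 4 lists (rows); points are edgeR estimates, whiskers the SE, and red marks an adjusted p under 0.05. The disc list lies almost wholly just left of 0 with Panx1 at 0.60, and the calcium channel list spreads from Cacng6 at -1.54 to Cacna2d3 at 1.04.

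Of the T-type pore genes, Cacna1g was not called: its difference as a mean of the strata was -0.19 ± 0.09 (edgeR adjusted p = 0.0907). Its group medians ran from 22.7 CPM in trained TG males to 33.1 CPM in sedentary TG females, and all group ranges overlapped their neighbours. The result turned on single hearts, since it was called without replicate 2 of the trained TG males (-0.23, adjusted p = 0.0359) or replicate 8 of the sedentary TG males (-0.22, adjusted p = 0.0429), and was -0.13 (adjusted p = 0.211) without replicate 4 of the sedentary nTG females. Without the 16 libraries low in Rps18 it was -0.12 (adjusted p = 0.434). By stratum the differences were -0.27 ± 0.18 and -0.30 ± 0.18 in sedentary and trained males, and 0.05 ± 0.18 and -0.26 ± 0.19 in sedentary and trained females. That in sedentary females was 0.35 without the 16 libraries and between -0.01 and 0.27 with 1 heart left out. With 1 heart left out, sedentary males gave -0.38 to -0.17 and trained males -0.44 to -0.16.

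With each group centred on its own mean, the genes most like Cacna1g over the 64 libraries were Sfrp5 (Pearson r 0.85, Spearman rho 0.78), the pacemaker channel gene Hcn4 (0.81 and 0.76) and Cntn2 (0.81 and 0.71), whose product marks Purkinje cells. The genes most like Gja5 were Drd2 (0.64 and 0.60), Sbk3 (0.63 and 0.48) and, again, Cntn2 (0.62 and 0.58). Of the 28 pairs among the 8 genes, Cacna1g and Gja5 had the highest Pearson r, 0.52 (rho 0.44), Cacna1g and Cacna1h had the highest Spearman rho, 0.56 (r 0.46), and Gja1 against Cacna1g was lowest by both (r -0.55, rho -0.52). All libraries share the scaling to total counts, and these values describe likeness only. The sum of 6 Purkinje and pacemaker markers, Cntn2 and Hcn4 among them, was 97.5 to 216 CPM in nTG and 93.4 to 157 CPM in TG hearts. Of these markers 4 fell and Shox2 rose as a mean of the strata; the part of tissue sampling in Cacna1g and Gja5 was not tested.

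Of 15 other pacemaker and conduction genes listed, 13 were measured, and 1 rose and 8 fell, with a list median of -0.20. Popdc2, encoding a cAMP-binding membrane protein of myocytes, fell by 0.40 ± 0.03, or 24.5% (edgeR adjusted p = 2.51e-16), and passed in all 4 strata. The homeobox genes Irx3 and Irx5, known regulators of conduction and repolarisation in the ventricle, fell by 0.39 ± 0.06 (adjusted p = 1.08e-06) and 0.35 ± 0.07 (adjusted p = 1.10e-05). Hcn4, so like Cacna1g between hearts, was not called (0.05 ± 0.09).

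Cacna1h, the other T-type pore gene, varied most. Its lowest, median and highest values were 14.4, 20 and 57.3 CPM in sedentary and 26.2, 33.4 and 52.1 CPM in trained nTG males, against 10.1, 22.2 and 26.5 CPM in sedentary and 3.54, 22.3 and 43.1 CPM in trained TG males. In females they were 12.7, 22.3 and 36.2 CPM (sedentary nTG), 16.7, 26.7 and 43 CPM (trained nTG), 12.7, 21.8 and 39.2 CPM (sedentary TG) and 4.2, 18 and 24.3 CPM (trained TG). The TG and nTG ranges overlapped in all 4 strata, and in sedentary males only 2 of 9 TG hearts lay below the nTG median, which was under the TG median. The differences were -0.61 ± 0.29 and -0.60 ± 0.29 in sedentary and trained males, and 0.02 ± 0.29 and -0.66 ± 0.31 in sedentary and trained females, none called by edgeR (adjusted p from 0.13 to 0.989). Single hearts moved these: the value was -0.39 in sedentary males without nTG replicate 5, -0.43 in trained males without TG replicate 7 and -0.44 in trained females without TG replicate 3. In trained males limma voom called Cacna1h (-0.82, adjusted p = 0.0327), and in sedentary males edgeR did without the 16 libraries low in Rps18 (-0.68, adjusted p = 0.0473). Without those 16 the value was -0.43 (adjusted p = 0.193) in trained males, 0.39 (adjusted p = 0.475) in sedentary females and -0.52 (adjusted p = 0.308) in trained females. As a mean of the strata Cacna1h fell by 0.46 ± 0.15, or 27.4% (adjusted p = 0.00942).

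The genes most like Cacna1h lay near it. They were Hmga1 (r 0.75, rho 0.56), the ribosomal protein gene Rps18 (0.73 and 0.50) and the splicing factor gene Rnps1 (0.71 and 0.52), on chromosome 17 at 2.12, 8.52 and 0.95 Mb from it. Of its 20 most alike genes, 17 were on chromosome 17, between 6.3 and 35.7 Mb, while 4.79% of the 12175 genes eligible for the ranking were. For the other 7 members 0 to 2 of the 20 lay on the member's own chromosome. Rps18 fell into 3 separate ranges: 5.41 to 6.15 CPM in 2 libraries, 21.1 to 24.2 CPM in 14 and 33.3 to 47.1 CPM in 48. Median Cacna1h in these was 3.87, 16 and 24.6 CPM, though the upper ranges overlapped widely in Cacna1h, at 10.1 to 36.2 and 12.7 to 57.3 CPM. The 2 libraries, replicate 7 of the trained TG males and replicate 3 of the trained TG females, also had the 2 lowest Cacna1h values, 3.54 and 4.2 CPM.

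Rps18 below 30 CPM occurred in 7 nTG and 9 TG hearts. Without the 2 lowest, the mean fall of Cacna1h was 0.37 (edgeR adjusted p = 0.0157), and without all 16 it was 0.31 (adjusted p = 0.0484), so the call was kept with a smaller estimate. What sets the Rps18 ranges was not tested. Cacna1h overlaps Tpsg1 on the opposite strand, which is not analysed here.

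**Figure D4:**
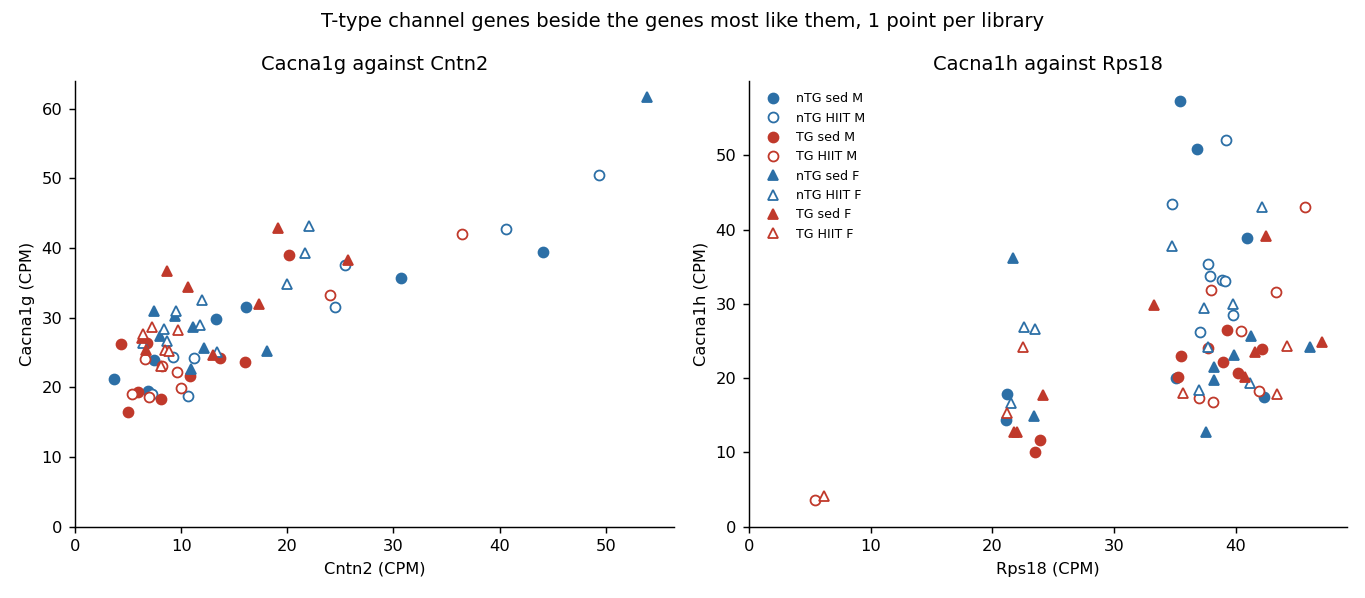
Left, Cacna1g against Cntn2, and right, Cacna1h against Rps18, both in CPM with axes from 0 and 1 point per library (red TG, blue nTG; filled sedentary, open trained; circles males, triangles females). Cacna1g rises with Cntn2 up to 61.7 CPM in 1 sedentary nTG female, and Rps18 forms 3 separate ranges, the lowest holding the 2 hearts with least Cacna1h.

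Training changed 1 of the 8 genes in 1 of 4 comparisons. In TG males Cacna2d1 had a lowest, median and highest value of 101, 122 and 138 CPM when sedentary and 134, 144 and 181 CPM when trained. All 8 trained hearts lay above the sedentary median, and the ranges met between 134 and 138 CPM. The rise was 0.32 ± 0.06, or 24.6% (edgeR adjusted p = 0.00155), in a comparison where 18% of all genes were called. Leaving out any 1 of the 17 hearts gave 0.27 to 0.34 and kept the call. The highest trained value, 181 CPM, was replicate 7, 1 of the 2 libraries lowest in Rps18. Without those 2 the rise was 0.27 (adjusted p = 0.0086), and without all 16 low in Rps18 it was 0.27 (adjusted p = 0.0248), while the genes called in this comparison went from 3036 to 1741 and 533. The sedentary TG males are also the group in which Cacna2d1 was lower than in nTG, so the 2 comparisons share those 9 hearts; the group medians were 147 (sedentary nTG), 122 (sedentary TG), 168 (trained nTG) and 144 CPM (trained TG). The genotype by training interaction in males was 0.16 ± 0.09 (95% interval -0.02 to 0.35, adjusted p = 0.408).

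Other markers moved in the same TG male comparison. The 6 blood markers all fell with training, with sums of 291 to 4626 CPM in sedentary and 259.7 to 555 CPM in trained hearts, and 4 of 6 macrophage markers fell. Of 6 cardiomyocyte markers Pln and Ryr2 rose and 4 were not called, with the 6 between -0.03 and 0.34. The cardiomyocyte sum was 46558 to 56239 CPM in sedentary and 42219 to 58848 CPM in trained hearts. The part of these markers' cells in the rise of Cacna2d1 was not tested. Among the genes most like Cacna2d1 between hearts within groups were Pnpla8 (0.80 and 0.76) and the mitochondrially encoded mt-Co1 (0.77 and 0.76).

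**Figure D5:**
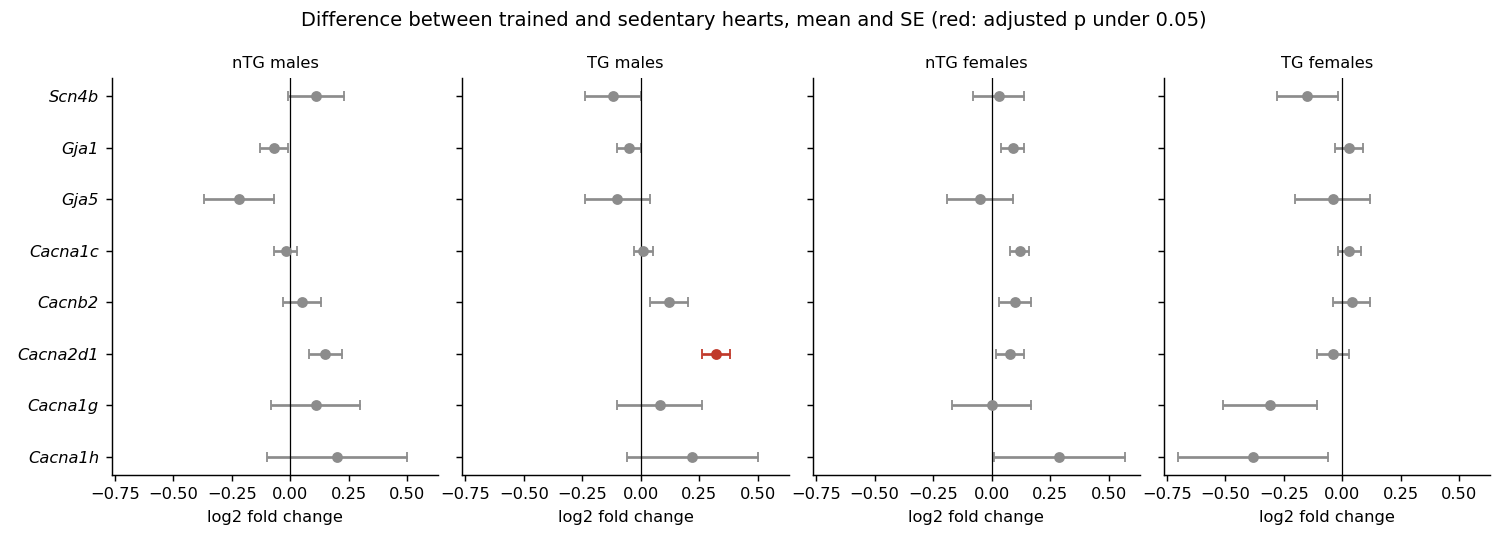
Log2 fold change of trained over sedentary hearts (x axis) for each gene (rows), in nTG and TG males and females; points are edgeR estimates, whiskers the SE, and red marks an adjusted p under 0.05. Cacna2d1 in TG males, at 0.32, is the single red point.

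In the other training comparisons within a single sex and genotype, 0 of 8 genes were called by edgeR, DESeq2 or limma voom. In nTG males, where 0% of all genes were called and 5.91% had an unadjusted p below 0.05, Cacna2d1 was the 1 member with such a p (0.15 ± 0.07, adjusted p = 0.783). In nTG females, with 0.148% called and 14.2% at that unadjusted level, it was Cacna1c (0.12 ± 0.04, adjusted p = 0.185). In TG females, with 0% and 3.58%, no member reached it; the estimates were -0.38 ± 0.32 for Cacna1h, -0.31 ± 0.20 for Cacna1g and -0.15 ± 0.13 for Scn4b, and Cacna2d1 was at -0.04 ± 0.07. For Scn4b in TG females the 95% interval was -0.41 to 0.11.

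The change of Cacna2d1 with training differed between TG females and TG males by -0.36 ± 0.10 (95% interval -0.54 to -0.17, unadjusted p = 4.05e-04, edgeR adjusted p = 0.089). In this comparison edgeR called 0 of 8 members and 0% of all genes, and Cacna2d1 was the 1 member with an unadjusted p below 0.05, beside 18.1% of all genes. DESeq2 and limma voom called it (adjusted p = 0.0369 and 0.024), beside 223 of the 9043 genes DESeq2 gave an adjusted p and 927 of 16913 by limma voom. It was -0.29 (edgeR adjusted p = 0.318) without the 2 libraries lowest in Rps18 and -0.23 (adjusted p = 0.988) without the 16. Leaving out replicate 4 of the trained males, or replicate 4 of the sedentary or 6 of the trained females, gave a call (adjusted p = 0.0346, 0.0422 and 0.0188). Averaged over the sexes the training change of Cacna2d1 was 0.12 ± 0.05 in nTG (adjusted p = 0.235) and 0.14 ± 0.05 in TG hearts (adjusted p = 0.11). It was the 1 member with an unadjusted p below 0.05 in each, beside 12.7% and 19.2% of all genes, and edgeR called 0 of 8 members beside 0.384% and 0.52% of all genes. In TG hearts limma voom called Cacna2d1 (adjusted p = 0.0128), beside 1807 of 16913 genes, as did edgeR without replicate 7 of the sedentary TG females (0.17, adjusted p = 0.016); in nTG hearts DESeq2 and limma voom called 0 members.

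In sedentary females 0 of 8 genes differed by genotype by edgeR, DESeq2 or limma voom, beside 4.37% of all genes by edgeR. Scn4b was the 1 member with an unadjusted p below 0.05, which 16.4% of all genes had. The difference in genotype effect between females and males was called for 0 of 8 genes by any of these tools and for 0% of all genes by edgeR, with no member and 4.71% of all genes at an unadjusted p below 0.05. Its 95% interval was -0.18 to 0.29 for Scn4b and -0.29 to 0.86 for Cacna1h. The genotype by training interactions gave 0 of 8 members by these tools and 0% of all genes by edgeR in either sex, with no member at an unadjusted p below 0.05 beside 14.8% of all genes in males and 6.46% in females. Between the sexes, averaged over genotype and training, edgeR and DESeq2 called 0 of 8 members, beside 16.6% of all genes by edgeR, and limma voom called 1, beside 3568 of 16913 genes. Gja1 was the 1 member with an unadjusted p below 0.05, at -0.07 ± 0.03 in females relative to males (unadjusted p = 0.0126, edgeR adjusted p = 0.0677), beside 28.9% of all genes.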

How the data were processed

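Total RNA of 64 hearts was depleted of ribosomal RNA and sequenced, per the labels' protocols. Per the submitters' processing notes, the tools were cutadapt 2.3, FastQC 0.11.8, MultiQC 1.7, STAR 2.7.8a and RSEM 1.3.3, with the builds GRCm38 and mm10. The authors deposited whole-number counts for 16913 genes by Ensembl identifier, and estimated counts (expected counts) for 3787 lncRNA transcripts, 45 with fractional values. GENCODE M21 gave symbols for 16879 identifiers, and lengths and positions.

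Gene columns were matched to lncRNA columns by Pearson's r of centred log2 CPM (pseudocount 0.5) over the 389 autosomal transcripts shared by the tables and averaging 20 or more counts; columns by their own names were an alternative. The lncRNA estimated counts that the authors deposited served only this match. Deposited gene counts were tested in R 4.3.3 with edgeR 4.0.16: TMM factors, filterByExpr (which removed no gene), 8 group means in 1 quasi-likelihood fit, Benjamini-Hochberg adjustment over all genes, threshold 0.05. CPM values use TMM-scaled library sizes, except in the check of labels, which used plain totals. Alternatives were DESeq2 1.42.0, limma 3.58.1 voom with quality weights, other size factors and filters, fewer groups in the fit, the replicate number as a block, and leaving out libraries; the 2 that leave out libraries low in Rps18 were chosen after seeing the data. The scripts were tested on simulated data. Likeness used log2 CPM centred within groups, over genes averaging 50 or more counts, and the 3 highest genes per member were named. From each list the 3 genes with the smallest p in the mean genotype comparison were named. A few genes of the lists and rankings are not reported here, and the list counts leave them out. The 8 genes, lists and markers were chosen with earlier results of these data known. Promoters came from RefSeq (GRCm38.p6), which had windows for 6 of the 8 genes.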

Additional observations from a re-analysis of the deposited data

Results flagged for a closer look

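Each of the 8 genes was checked in each of the 8 groups, 64 sets of values, for a heart far from the rest of its group by Dixon's 95% limit. It marked 8, where chance gives about 1 in 20 groups, or 3.2. Trained nTG females gave 3: Scn4b was 151 CPM in replicate 2 (the others 69.4 to 112), Gja5 was 11 CPM in replicate 5 (the others 6.4 to 8.81), and Cacnb2 was 104 CPM in replicate 6 (the others 73.8 to 86.5). Replicate 3 of the trained TG females was high in both Gja1, at 552 CPM (the others 409 to 453), and Cacnb2, at 85 CPM (the others 67.5 to 71.7), and it is 1 of the 2 libraries with Rps18 below 10 CPM. Cacna2d1 was 175 CPM in replicate 7 of the sedentary TG females (the others 119 to 141).

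Cacna1g was 39 CPM in replicate 8 of the sedentary TG males (the others 16.5 to 26.4), and that heart had 43.9 CPM of Hcn4. It was 61.7 CPM in replicate 4 of the sedentary nTG females (the others 22.7 to 30.9), the highest of all 64 hearts, and that heart had 53.9 CPM of Cntn2 and 52.2 CPM of Hcn4.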

How the results depend on the processing

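Of the counts of called members, all 16 stayed within 1.5 times under other size factors, other filters and fits of fewer groups. Gene columns by name gave 0 members called in sedentary males, trained males, trained females, TG males with training and the mean genotype comparison. Of all 16913 genes, 0 were called in each of these. In the nTG training mean 1 member was called, beside 2407 of 16913 genes. Gene columns by name turned the sign of 22 single values. In the genotype comparisons by name, Scn4b was 0.23 in sedentary males and 0.06 in trained females. Cacna2d1 was 0.01 in sedentary males, 0.01 in sedentary females, 0.05 in trained females and 0.01 as the mean. Cacna1c was 0.11 in trained males, 0.03 in trained females and 0.01 as the mean. In trained males Gja5 was 0.22, Cacnb2 0.05, Cacna1g 0.33 and Cacna1h 0.31. Cacna1h was -0.50 in sedentary and 0.06 in trained females, and Cacna1g 0.03 as the mean. With training, Cacna2d1 by name was -0.10 in nTG males, -0.15 in TG males, -0.08 in nTG females, -0.09 in both means, and 0.11 for the sex difference in TG hearts. Most of these libraries contradict their labels by name.

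limma voom called 3 members in trained males, 5 in trained females, 1 in the TG training mean, 1 for the sex difference of training in TG hearts and 1 between the sexes; it gave -0.06 for Cacna1h in sedentary females. DESeq2 called 2 in trained males and 1 for that sex difference. DESeq2 added Cacna1c in trained males (adjusted p = 0.047); limma voom added Cacna1c and Cacna1h there, and Cacnb2 and Cacna2d1 in trained females. Of 16913 genes limma voom called 2633 in trained males, 3586 in trained females, 1807 in the TG training mean, 927 for the sex difference and 3568 between the sexes; DESeq2 called 2590 of 15273 in trained males. Without 16 libraries low in Rps18, 1 member was called in trained females, beside 783 of 16913 genes. Gja5 was then 0.02 in sedentary females and Cacna2d1 was 0.04 in TG females with training. Without 2, 1 member was called between the sexes, beside 2649 of 16913 genes. Leaving out 16 leaves 48 libraries, and the cause was not tested.

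Leaving out 1 heart gave 1 to 2 calls in trained males, 1 to 3 in trained females, and 0 to 1 in the TG training mean, the training by sex difference and the sex comparison. The shares of all genes called in these fits are not given here. In trained males, Cacna1c was called without replicate 1 or 2 of the TG or 3 or 4 of the nTG group. In trained females 1 call was left without TG replicate 1 or 4. Signs turned for Cacnb2 in trained males (-0.10 to 0.00), Cacna1g (-0.01 to 0.27) and Cacna1h (-0.14 to 0.16) in sedentary females, and Cacna2d1 with training in TG females (-0.08 to 0.02), none of them called in the full fit.

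The labels do not say whether replicate numbers pair hearts across groups. Over 205 same-numbered pairs the median correlation of deviations was 0.010 (-0.243 to 0.270, 24 above 0.1). A correlation over all genes cannot show whether some effect was shared by hearts of the same number. With the number as a replicate block, edgeR called 3 members in sedentary males (Scn4b added, -0.33, adjusted p = 0.0222), beside 3690 of 16913 genes. In trained females 2 were called (Cacna1c lost, adjusted p = 0.0544), beside 1973 genes. The mean genotype comparison kept 7, beside 6502 genes.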
